A study of Mus musculus with 10 samples.

Results

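Imprinted growth genes are genes of which mainly the copy from the mother or mainly the copy from the father is transcribed, and whose products raise or restrain growth. They were picked by gene name from a list of 8, of which 6 are among the 6147 genes of the table: Igf2, Igf2r, Grb10, Cdkn1c, Mest and Ndn. The names Peg3 and Dlk1 are not analysed here. The list was selected with the TPM of these libraries known, so the levels of the 6 genes are described without a test. RNA came from frozen neocortex, the layered outer wall of the forebrain, of CD1 wild type mice, an outbred laboratory strain. All animals were untreated and unmodified, as far as the labels say. The stages were E12.5, E14, E15.5 and E17, counted in days of gestation, and P0, the day of birth, with 2 libraries each and 10 in all. TPM is a gene's share of transcripts, corrected for its length. The labels do not say whether the 2 libraries of a stage came from separate animals or litters. The errors below therefore rest only on the spread between libraries.

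Imprints are set by DNA methylation at CpG sites laid down in the germ cells and kept through cell division. Igf2 is a secreted growth factor made from the father's copy in most tissues, and it signals through the receptors Igf1r and Insr. Igf2r takes up Igf2 for breakdown and sorts enzymes that carry mannose 6-phosphate to lysosomes. It is made from the mother's copy in most mouse tissues. Grb10 is an adaptor that binds activated insulin and IGF receptors and restrains their signal. It is made from the mother's copy in most tissues and from the father's in neurons. Cdkn1c, from the mother's copy, inhibits cyclin-dependent kinases as progenitors leave the cell cycle. Mest, from the father's copy, encodes a membrane protein of the endoplasmic reticulum with a hydrolase fold. Ndn, also from the father's copy, encodes necdin, a protein of the MAGE family that is abundant in neurons after their last division. TPM do not separate the parental copies, so nothing below concerns the imprint itself. In tissue, fewer cells of a type and less RNA per cell cannot be told apart.

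The 6 genes lie at 5 places on 4 chromosomes of GRCm38, with positions from GENCODE M21. Igf2 is on chromosome 7 from 142650766 to 142666816 on the reverse strand, and Cdkn1c is near it at 143458339 to 143461050, also reverse. Ndn is elsewhere on chromosome 7, from 62346569 to 62350262 on the forward strand. Grb10 is on chromosome 11 from 11930508 to 12038683 (reverse), Igf2r on chromosome 17 from 12682406 to 12769664 (reverse) and Mest on chromosome 6 from 30723547 to 30748465 (forward). On the same strand Igf2 shares nearly its whole length with the annotated gene Gm49394 (142650769 to 142669942), so reads of Igf2 may have been split or dropped by the counting. Genes on the opposite strand overlap 5 of the 6, among them Airn at Igf2r. Mest overlaps the end of Copg2 on the opposite strand. The libraries kept strand, but the sources used here do not say whether the counting used it, so reads of a gene and its antisense partner cannot be told apart.

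Promoter sequences from RefSeq (GRCm38.p6) matched 5 of the 6 genes. The sequences below are the 250 bases before a transcript start, with every CpG in capitals. They are shown because these 4 genes were all lower at P0 than at E12.5. The capitals mark CpG in the sequence, not sites known to carry an imprint, and where the imprints lie was not examined. For each gene, the window with the most CpG among those free of annotated exons was taken. The windows lie at chr11:12037421-12037670 (Grb10, reverse strand), chr17:12769707-12769956 (Igf2r, reverse), chr6:30737800-30738049 (Mest, forward) and chr7:142657497-142657746 (Igf2, reverse), and read 5′ to 3′ on the strand of the gene.
Grb10: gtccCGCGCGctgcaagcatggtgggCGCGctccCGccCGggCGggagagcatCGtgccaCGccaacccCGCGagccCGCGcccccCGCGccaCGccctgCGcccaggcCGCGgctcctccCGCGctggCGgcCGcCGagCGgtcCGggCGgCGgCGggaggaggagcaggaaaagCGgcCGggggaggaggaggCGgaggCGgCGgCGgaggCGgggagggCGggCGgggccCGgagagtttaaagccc
Igf2r: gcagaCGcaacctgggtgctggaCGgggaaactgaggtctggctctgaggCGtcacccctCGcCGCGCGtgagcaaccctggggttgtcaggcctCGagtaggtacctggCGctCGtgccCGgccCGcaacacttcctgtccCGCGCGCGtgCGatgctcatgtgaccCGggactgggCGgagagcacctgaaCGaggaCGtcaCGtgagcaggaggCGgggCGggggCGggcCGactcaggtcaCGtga
Mest: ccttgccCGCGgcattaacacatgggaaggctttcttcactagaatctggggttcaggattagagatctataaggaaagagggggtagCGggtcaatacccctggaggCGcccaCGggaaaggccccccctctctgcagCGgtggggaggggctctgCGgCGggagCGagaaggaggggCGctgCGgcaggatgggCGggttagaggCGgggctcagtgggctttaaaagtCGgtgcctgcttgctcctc
Igf2: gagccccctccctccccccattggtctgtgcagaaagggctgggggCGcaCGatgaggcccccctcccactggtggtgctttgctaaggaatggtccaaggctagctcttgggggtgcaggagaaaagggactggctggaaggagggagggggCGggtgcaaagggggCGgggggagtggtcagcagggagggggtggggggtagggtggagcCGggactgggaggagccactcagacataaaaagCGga

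The Grb10 window holds 40 CpG, more than 98.7% of 32851 windows of the same length in the table, and its G and C content is 81.2%. Igf2r has 27 CpG (more than in 91.4% of windows), Mest 14 (70.6%) and Igf2 6 (49.6%). The median window holds 6 CpG, and 92.1% of windows hold at least 1. Igf2 has 4 windows in the table, with 1 to 22 CpG. The CpG counts of these 4 windows therefore ran from near the middle of all promoters to near the top. A CpG count is a property of the reference sequence and gives no methylation level.

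From E12.5 to P0, 5 of the 6 genes were lower and Ndn was higher. Grb10 kept 4.49% of its E12.5 mean, Igf2 5.92%, Mest 8.78%, Igf2r 23.0% and Cdkn1c 47.1%, while Ndn stood at 133%. Differences and their SE come from limma, a linear model with 1 mean per stage on log2(TPM + 1). Of all 6048 genes tested in it, 78.2% were called at a Benjamini-Hochberg adjusted p under 0.05 from E12.5 to P0, 51.0% lower and 27.1% higher. The libraries of E12.5 and P0 did not overlap for 6 of the 6 genes and for 90.9% of all genes. Nothing is read from this count, because the genes were chosen with these values known. The median difference of the 6 was -2.67 on the log2 scale, and that of all genes was -0.27, with the middle 50% of genes between -0.83 and 0.31. For the same reason, nothing is read from this median or from the ranks of these genes among all genes given below.

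**Figure D1:**
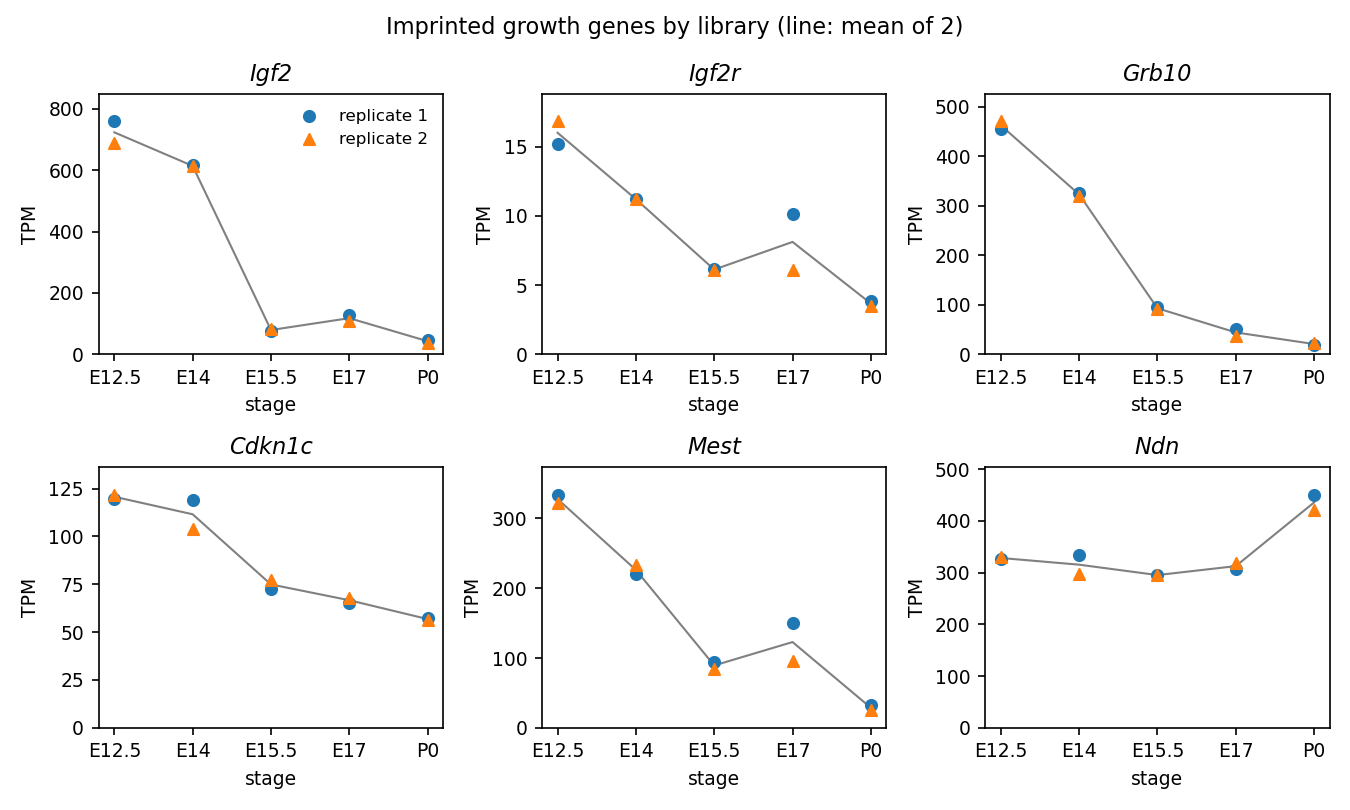
TPM (vertical axis, from 0) by stage for each of the 6 genes; circles are replicate 1, triangles replicate 2 and the line joins the means of the 2 libraries. Igf2 was at 614 at E14 and at 79.2 at E15.5, Igf2r and Mest have E17 libraries that lie apart, and Ndn is highest at P0.

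The growth factor Igf2 was the most abundant of the 6 in each E12.5 and E14 library. It was at 759 and 688 TPM at E12.5, at 616 and 612 at E14, at 76.1 and 82.3 at E15.5, at 127 and 109 at E17, and at 47.6 and 38.0 at P0. Both early stages were thus far above the 3 later ones, and the libraries of no pair of stages overlapped. Both E17 libraries were above both E15.5 libraries, and both P0 libraries were below them. From E14 to E15.5 the difference was -2.94 on the log2(TPM + 1) scale (SE 0.11), a 7.75-fold lower mean. A lower value was found for 13 of 6048 genes. The differences were -0.23 (SE 0.11) from E12.5 to E14, 0.56 (SE 0.11) from E15.5 to E17 and -1.44 (SE 0.11) from E17 to P0. Over the whole span it was -4.05 (SE 0.11).

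Markers of tissue around the neocortex moved with Igf2 in part. Igf2 is known to be strongly made in the meninges, the choroid plexus and vessel walls of the embryonic brain. Of a list of 16 genes of meninges and fibroblasts, 11 were in the table, and they summed to between 310.0 and 319 TPM at E12.5, 180 and 195 at E14, 10.4 and 12.1 at E15.5, 18.5 and 19.4 at E17, and 11.9 and 13.1 at P0. This sum, like Igf2, was far lower from E15.5 on and was higher at E17 than at E15.5 and P0. Unlike those of Igf2, its P0 and E15.5 libraries overlapped. From E14 to E15.5 all 11 were called lower in limma, with a median of -3.22. Collagen Col3a1 was at 28.8 and 27.0 TPM at E14 and at 0.331 and 0.457 at E15.5, and the matrix protein Lum at 21.1 and 23.5, then 0.332 and 0.229. None of the 11 is at 0 in any library. Of 12 choroid plexus genes, 2 were in the table. Their sum was 303 to 452 TPM at E12.5, 1405 to 1517 at E14 and 3.07 to 5.26 from E15.5 on, so it was higher at E14 than at E12.5, where Igf2 was lower. Endothelial markers (2 of 10 in the table) summed to 82.0 and 87.7 TPM at E12.5, 54.3 and 58.9 at E14, 16.5 and 15.9 at E15.5, 25.7 and 19.7 at E17, and 8.90 and 7.28 at P0. The part of these tissues in the values of Igf2 was not tested.

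**Figure D2:**
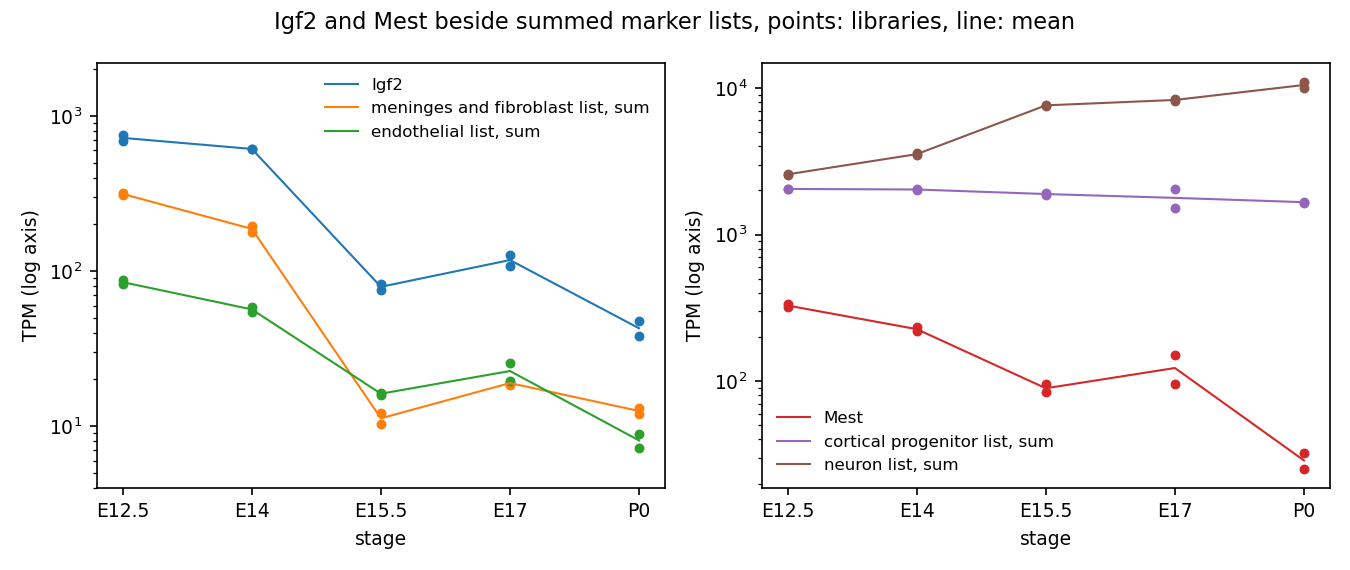
TPM on a log axis by stage, with points for libraries and lines through the means; left, Igf2 beside the summed meninges and fibroblast list and the summed endothelial list; right, Mest beside the summed cortical progenitor and neuron lists. Igf2 and the meningeal sum share the step from E14 to E15.5 and the higher values at E17. The sum of the progenitor list stays between 1528 and 2060, although 5 of its 7 genes were called lower and 1 higher from E14 to E15.5.

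The tissue label was checked on neocortex markers. Emx1, a transcription factor of the dorsal forebrain, lay between 51.0 and 177 TPM over the 10 libraries, Tbr1, a transcription factor of early cortical neurons, between 69.3 and 159, and Neurod2, a transcription factor of excitatory neurons, between 246 and 657, so none of them was at 0 in any library. Neuronal markers (9 of 10 in the table) summed to between 2564 and 3606 TPM at E12.5 and E14 and to between 7532 and 10925 from E15.5 on, with 9 of 9 called higher and none lower from E14 to E15.5. Embryonic red cell markers (3 of 11) summed to between 1880 and 4494 TPM at E12.5 and E14 and to between 2.04 and 9.84 from E15.5 on, with 3 of 3 called lower from E14 to E15.5, and of these only Hbb-bh1 is listed at 0 in a library. These marker shifts coincided with lower values of Igf2, Igf2r, Grb10, Cdkn1c and Mest from E14 to E15.5, but not clearly of Ndn. The part of the marker shifts was not tested.

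The receptor Igf2r had the lowest level of the 6 in every library. It was at 15.2 and 16.8 TPM at E12.5, 11.20 and 11.21 at E14, 6.16 and 6.08 at E15.5, 10.17 and 6.07 at E17, and 3.83 and 3.51 at P0. E17 replicate 1 was near the E14 level, and E17 replicate 2 was below both E15.5 libraries, so E15.5 and E17 overlapped. The difference from E14 to E15.5 was -0.78 (SE 0.17), and that from E12.5 to P0 -1.86 (SE 0.17). Because Igf2r is at a few TPM, the added 1 TPM shrinks these values; the ratio of the means from E12.5 to P0 was 4.36-fold. Within each library, the TPM of Igf2 was 40.9 to 55.0 times that of Igf2r at E12.5 and E14, and 10.8 to 17.9 times at the 3 later stages. The RNA of the ligand was therefore lower relative to that of its clearing receptor from E15.5 on, while the receptor RNA was lower too. Protein was not measured.

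Grb10, the adaptor that restrains insulin and IGF receptors, had the lowest P0 level relative to E12.5. It was at 454 and 470 TPM at E12.5, 325 and 320.4 at E14, 95.3 and 90.6 at E15.5, 51.3 and 37.2 at E17, and 19.6 and 21.9 at P0. Every stage was below the one before with no overlap of libraries, which holds for Grb10 and Cdkn1c among the 6. The difference was -0.52 (SE 0.12) from E12.5 to E14, -1.79 (SE 0.12) from E14 to E15.5, -1.07 (SE 0.12) from E15.5 to E17 and -1.04 (SE 0.12) from E17 to P0. Over the span it was -4.41 (SE 0.12), with 9 of 6048 genes lower. Grb10 and Igf2 parted at E17: the TPM of Igf2 was 0.798 and 0.908 times that of Grb10 in the E15.5 libraries and 2.48 and 2.92 times in the E17 libraries.

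Cdkn1c, the inhibitor of cyclin-dependent kinases, differed least among the 5 genes that were lower at P0. Its values were 120 and 122 TPM at E12.5, 119 and 104 at E14, 72.8 and 77.1 at E15.5, 65.5 and 67.9 at E17, and 57.4 and 56.2 at P0. The means of E12.5 and E14 differed by less than the SD at E14 (10.5 TPM, n = 2), and the largest step was again from E14 to E15.5, at -0.57 (SE 0.08). Over the span the difference was -1.07 (SE 0.08), so Cdkn1c still stood at 47.1% of its E12.5 level at birth and was second to Ndn in both P0 libraries.

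Mest, the hydrolase-like protein of the endoplasmic reticulum, was at 334 and 322 TPM at E12.5, 220 and 233 at E14, 94.9 and 83.8 at E15.5, 149.9 and 95.9 at E17, and 32.2 and 25.3 at P0. Like Igf2 it was higher at E17 than at E15.5 by the means, but E17 replicate 2 exceeded the higher E15.5 library only narrowly. The difference of E17 replicate 1 from the E15.5 mean was 0.74 on the log2 scale and that of replicate 2 was 0.10. From E17 to P0 Mest had the largest difference of the 6 genes, at -2.03 (SE 0.17), a 4.27-fold lower mean. The differences were -0.53 (SE 0.17) from E12.5 to E14, -1.33 (SE 0.17) from E14 to E15.5 and -3.47 (SE 0.17) over the span. The cortical progenitor list (7 of 10 genes in the table) summed to between 2002 and 2060 TPM at E12.5 and E14 and to between 1528 and 2030 later. That flat sum hides its members: from E12.5 to P0 5 of the 7 were called lower and 2 higher, with a median of -2.78, and their part in the values of Mest was not tested.

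Ndn, which encodes necdin, went the other way. It was at 326 and 331 TPM at E12.5, 333 and 297 at E14, 296 and 295 at E15.5, 307 and 318 at E17, and 450.1 and 421 at P0. The embryonic stages lay within a range of 295 to 333 TPM, and both P0 libraries were above them. E12.5 overlapped with E14, and E14 with E17, while the E15.5 libraries were just below the lowest of the other stages. The difference was -0.09 (SE 0.08) from E14 to E15.5, a value that turned to 0.0291 under median-of-ratios scaling, and 0.48 (SE 0.08) from E17 to P0. Over the span it was 0.41 (SE 0.08). Ndn became the most abundant of the 6 from E15.5 on, in each of the 6 later libraries, and its TPM went from 0.704 and 0.717 times that of Grb10 at E12.5 to 22.9 and 19.2 times at P0.

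**Figure D3:**
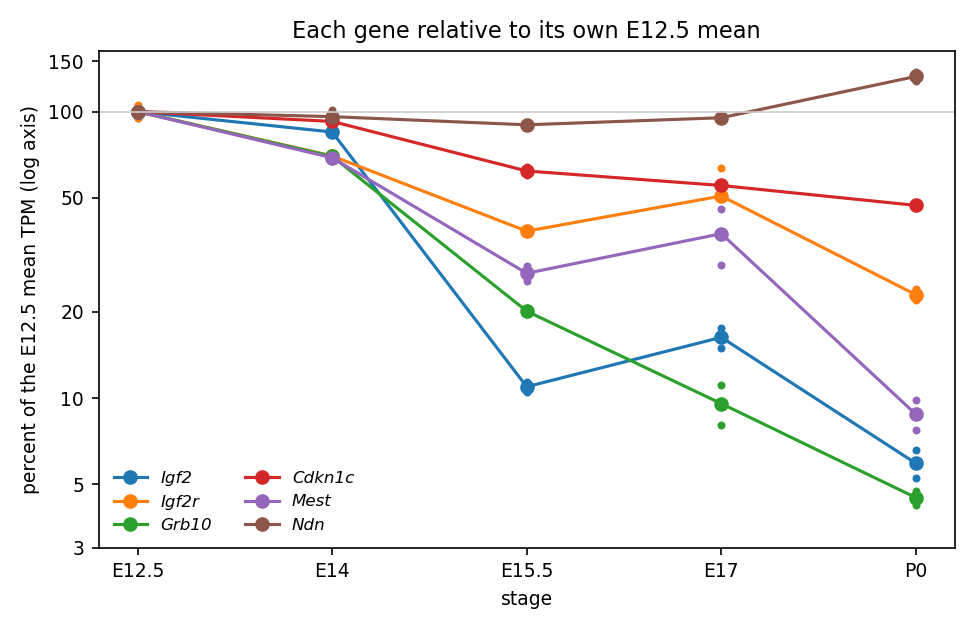
Mean TPM of each gene as a percent of its own E12.5 mean (log axis) by stage; small points are single libraries. At P0 the 6 genes spread from 4.49% (Grb10) to 133% (Ndn), and Igf2 had the lowest value at E15.5, at 10.95%.

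At the step from E14 to E15.5, 51.7% of all genes were called, 33.3% lower and 18.4% higher. The libraries of E14 and E15.5 did not overlap for 6 of 6 genes and for 87.8% of all genes, and nothing is read from this either. At this step the 6 genes together went from 1624 and 1578 TPM to 641 and 635. The later sums were 711 and 634 at E17 and 611 and 566 at P0, so most of the lower total had been reached by E15.5. The E17 libraries were the least alike of the 5 pairs over all genes, with an SD of the difference between replicates of 0.29 on the log2 scale against 0.09 to 0.18 at the other stages. Igf2r and Mest were among the genes higher in replicate 1, with 229 and 256 of 6048 genes showing a larger excess, whereas Ndn and Cdkn1c differed by 0.05 in size.

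Pearson correlations of log2(TPM + 1) over the 10 libraries are given as a description, since the libraries share their stages and the fixed total. Among Igf2, Igf2r, Grb10, Cdkn1c and Mest they lay between 0.89 (Igf2r with Cdkn1c) and 0.98 (Grb10 with Cdkn1c). Ndn had r between -0.67 and -0.44 with each of them. Of the genes (5440, or 5441 for Igf2r) that averaged 10 TPM or more, those most like Grb10 were Dtl, a substrate receptor of a ubiquitin ligase active in replication (r = 0.999), and Xrcc5, a subunit of the Ku complex in DNA repair (0.998). Those most like Igf2 were Anxa2, a calcium-dependent membrane-binding protein (0.994), the lysosomal peptidase Tpp1 and Mcam, a cell adhesion molecule of vessels (0.992). For Mest they were Hyal2, Fzd1, a Wnt receptor, and Golm1, with r of 0.991 to 0.996. Igf2r was most like Pofut1, an enzyme that adds fucose to Notch receptors (0.998), Pom121 of the nuclear pore and Lman2. Cdkn1c was most like Rpp25l, Gemin2 and Nsmce4a (0.992 to 0.998). Ndn had looser neighbours, led by the Golgi protein Gorasp2 (0.983) and followed by Cnp and Yrdc. Under quantile normalization, none of the genes named for Grb10 or for Igf2 was still among the 3 nearest.

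The receptors and signalling proteins downstream of Igf2 were then examined, with tests, as other genes of the pathway. Of a list of 33 genes of insulin and IGF signalling, 24 were tested. From E12.5 to P0, 8 were called lower, 9 higher and 7 were not called, with a median of -0.15 against -0.27 for all genes. Under median-of-ratios scaling 6 were lower and 10 higher (median 0.11), and under quantile normalization 7 and 10 (median 0.15). The receptor Igf1r fell from 48.2 to 19.7 TPM (-1.25, SE 0.17, limma adjusted p = 3.28e-05), the receptor Insr from 33.7 to 18.8 (-0.81, SE 0.15, adjusted p = 0.000405) and the docking protein Irs1 from 44.0 to 13.9 (-1.60, SE 0.13, adjusted p = 4.52e-07). Igfbp2, which binds IGFs outside the cell, fell from 213 to 59.1 TPM (-1.85, SE 0.13, adjusted p = 8.96e-08). Nedd4, a ubiquitin ligase that binds Grb10, fell most, from 558 to 114 TPM (-2.30, SE 0.14, adjusted p = 2.66e-08). Among the genes that rose, Pik3r1, the regulatory subunit of PI 3-kinase, went from 23.1 to 109 TPM (2.18, SE 0.11). Grb14, the close relative of Grb10 in the same adaptor family, rose from 3.18 to 14.96 TPM (1.93, SE 0.11).

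The Grb14 libraries were at 3.23 and 3.13 TPM at E12.5, 5.03 and 4.78 at E14, 10.2 and 9.49 at E15.5, and 12.1 and 13.5 at E17, and at 14.4 and 15.501 at P0, so at birth Grb10 still exceeded Grb14 in both libraries. From E14 to E15.5, the step with the largest difference in Igf2, Igf1r and Insr were at -0.14 (SE 0.17, limma adjusted p = 0.508) and -0.17 (SE 0.15, adjusted p = 0.366). Igfbp2, Irs1 and Nedd4 fell at that step, by 0.93, 0.61 and 0.89. At E17 the Igf1r libraries were at 61.7 and 37.7 TPM and those of Insr at 44.5 and 29.9, with replicate 1 the higher, as for Igf2r and Mest.

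**Figure D4:**
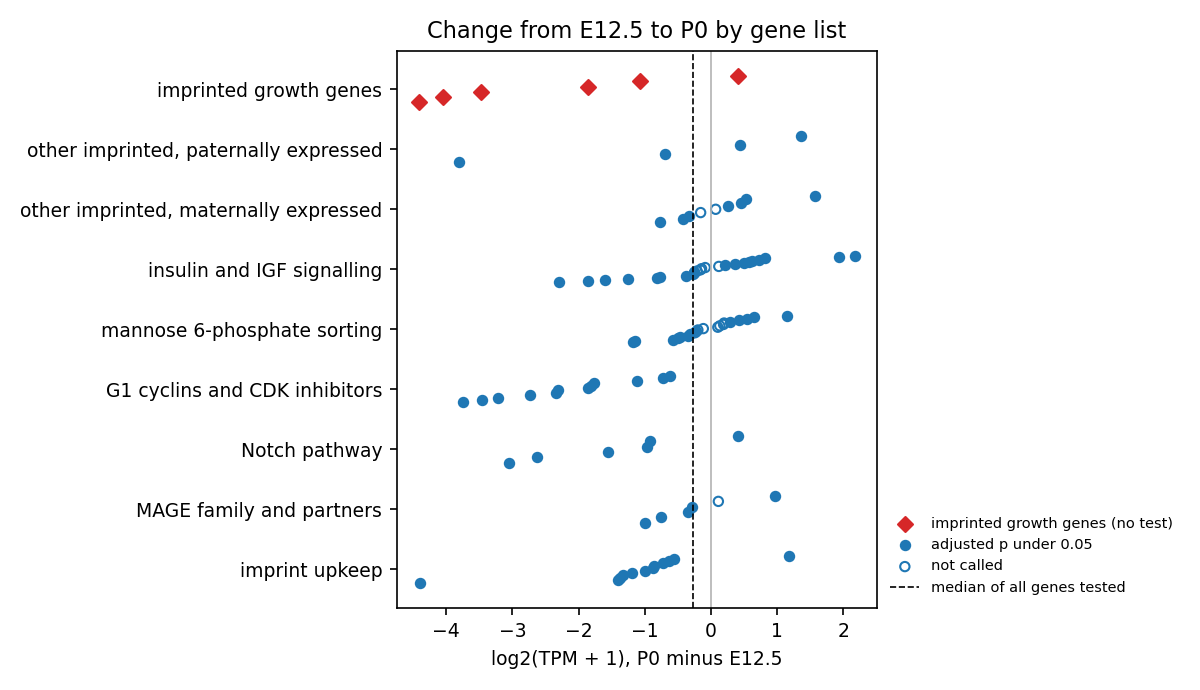
Difference in log2(TPM + 1) between P0 and E12.5 for single genes (points) in each list; filled points had an adjusted p under 0.05 in limma, open points did not, diamonds are the 6 imprinted growth genes, which carry no test, and the dashed line is the median of all genes (-0.27). The cell cycle list lies wholly left of 0, and the insulin and IGF list lies on both sides.

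The sorting route in which Igf2r acts was mixed. Of 24 genes listed for mannose 6-phosphate sorting and its lysosomal cargo, 20 were tested, and from E12.5 to P0 8 were called lower, 5 higher and 7 were not called (median -0.16). This balance turned under median-of-ratios scaling, with 3 lower and 9 higher, and under quantile normalization, with 4 and 8. M6pr, the other mannose 6-phosphate receptor, fell from 91.9 to 41.2 TPM (-1.14, SE 0.12, limma adjusted p = 4.03e-06). It exceeded Igf2r in TPM at every stage and kept a larger share of its E12.5 level. The sorting nexin Snx1 fell most (-1.18, SE 0.08) and the retromer subunit Vps29 rose most, from 98.1 to 219 TPM (1.15, SE 0.08). The lysosomal protease Ctsd fell by 0.31 (adjusted p = 0.0231). Under median-of-ratios scaling, quantile normalization and without E12.5 replicate 2 or P0 replicate 2 its adjusted p was up to 0.743.

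The cell cycle genes with which Cdkn1c acts fell together. Of 22 listed G1 cyclins, kinases, inhibitors and their targets, 12 were tested, and 12 of 12 were called lower from E12.5 to P0, with a median of -2.08, and 0 higher. Under both other scalings 12 of 12 were lower as well. Ccnd2, the most abundant, fell from 2735 to 204 TPM (-3.74, SE 0.09, limma adjusted p = 2.98e-11), and Ccnd1 from 203 to 29.7 (-2.73, SE 0.08). The inhibitor Cdkn1b, a relative of Cdkn1c, fell from 469 to 283 TPM (-0.73, SE 0.08, adjusted p = 4.28e-06). From E14 to E15.5, 10 of 12 were called lower and 0 higher, and Cdkn1b was at 0.08 (SE 0.08, adjusted p = 0.419), where Cdkn1c was at -0.57 (SE 0.08).

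Of 24 Notch pathway genes listed, 6 were tested; from E12.5 to P0 5 were called lower and 1 higher (median -1.26). Notch1, a receptor that keeps progenitors undifferentiated, fell from 37.5 to 3.62 TPM (-3.06, SE 0.23, limma adjusted p = 1.71e-07). Numbl, which opposes Notch, rose by 0.41 (adjusted p = 0.0302), a call lost without E12.5 replicate 1 or 2 or without P0 replicate 1 (adjusted p up to 0.213). Of 10 MAGE family genes and partners, 6 were tested, with 4 called lower, 1 higher and a median of -0.32; under median-of-ratios scaling 2 were lower and 2 higher. Unlike Ndn, its relative Maged1 was lower, at 322 TPM at E12.5 and 251 at P0 (-0.35, SE 0.09, adjusted p = 0.00372), but not under median-of-ratios scaling (-0.08, adjusted p = 0.436). Magee1, another relative, rose from 17.9 to 36.2 TPM (0.97, SE 0.13, adjusted p = 2.33e-05). The difference between Ndn and its relatives was not tested.

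Other genes listed as imprinted went both ways. Whether they are imprinted in neocortex was not examined. Of 24 genes listed as transcribed from the father's copy 4 were tested, with 2 called lower and 2 higher from E12.5 to P0. Of 28 listed for the mother's copy 9 were tested, with 3 lower, 4 higher and 2 not called. Under median-of-ratios scaling the second list had 1 lower and 5 higher, and under quantile normalization 2 and 5. Peg12, a neighbour of Ndn in the Prader-Willi region, fell from 69.6 to 4.04 TPM (-3.81, SE 0.13, limma adjusted p = 2.29e-10), although Ndn was higher. Inpp5f, a phosphoinositide phosphatase, rose from 39.2 to 102 TPM (1.36, SE 0.08, adjusted p = 1.85e-08). Ube3a, the ubiquitin ligase of the same region as Ndn, fell from 119 to 69.4 TPM (-0.77, SE 0.11, adjusted p = 3.7e-05). Gnas, which encodes a G protein subunit, rose by 0.26 (adjusted p = 0.0098), a call lost without E12.5 replicate 1 (0.0849) or P0 replicate 1 (0.0686). Copg2, whose end overlaps Mest on the other strand, fell from 38.0 to 30.0 TPM (-0.33, SE 0.10, adjusted p = 0.00873). Under median-of-ratios scaling Copg2 was at -0.06 (adjusted p = 0.476) and under quantile normalization at -0.07 (adjusted p = 0.373). Usp29 rose from 16.4 to 22.8 TPM (0.44, SE 0.12, adjusted p = 0.00525), a call lost without P0 replicate 2 (0.0543). Ampd3, at 0.497 TPM at E12.5, rose to 3.44.

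Genes listed for the upkeep of imprints, among them Tet2 and Tet3, which act to remove DNA methylation, were mostly lower at birth. Of 16 listed, 12 were tested, with 11 called lower and 1 higher from E12.5 to P0 (median -0.93). Of all genes, 51.0% were called lower and 27.1% higher. Under both other scalings 10 of the 12 were lower and 1 higher. Uhrf1, which brings the methyltransferase to newly copied DNA, fell from 88.6 to 3.27 TPM (-4.39, SE 0.12, limma adjusted p = 7e-11), and the methyltransferase Dnmt1 from 56.9 to 21.5 (-1.37, SE 0.14, adjusted p = 2.19e-06). Trim28, the corepressor recruited to imprints, fell from 267 to 134 TPM (-0.99, SE 0.11). Zfp57, the zinc finger protein that brings Trim28 to methylated imprints, was the 1 gene that rose, from 40.5 to 93.4 TPM (1.18, SE 0.14, adjusted p = 1.31e-05). The Zfp57 libraries were highest at E17, at 133 and 105 TPM.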

How the data were processed

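Polyadenylated RNA of 10 neocortex libraries was measured. The authors deposited TPM, with a column for each library per the file headers, and per the submitters' processing notes STAR and Subread were used with GRCm38.p5; the sources used here give no versions, annotation, gene lengths or read depth. The listed genes hold 68.9% to 71.7% of all TPM, so a rise of abundant genes lowers others. Shares and ranks of all genes refer to these listed genes only. A marker missing from them may still be expressed. Per the labels' protocols, RNA was extracted from lysates cleared by centrifugation.

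Genes with a mean under 1 TPM were left out (99), which left 6048. limma 3.58.1 in R 4.3.3 was fitted on log2(TPM + 1) with 1 mean per stage over all 10 libraries (5 residual degrees of freedom) and a variance trend, and p-values were adjusted by Benjamini-Hochberg over all genes. The fit was run on simulated data with independent libraries and changes of known size at P0. That run does not show how reliable the calls are in these libraries. Fold changes of low genes are understated on this scale. Positions are from GENCODE M21. Tables and figures used Python 3.11.15, pandas 2.3.3 and matplotlib 3.10.9.

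The genes, the lists and the comparisons were chosen with earlier results of these data known. Named genes were the 6 members, their partners or locus neighbours, the called gene with the largest rise and fall of each list, marker genes, and the 3 genes with the highest correlation to each member, of which 1 is not reported here; Grb14 was named after its values were seen. The 19 alternatives are given in the closing section.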

Additional observations from a re-analysis of the deposited data

How the results depend on the processing

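Across 19 alternatives (pseudocount, filter, scaling, fit and leaving out each of the 10 libraries), the differences of Igf2, Igf2r, Grb10, Cdkn1c and Mest were below 0 from E12.5 to P0 and from E14 to E15.5 in 19 of 19. Their widest range was that of Igf2r from E12.5 to P0, -2.09 to -0.93, both ends set by the pseudocount. The settings of filter and fit, and leaving out a library of another stage, cannot move a gene's difference. They are counted among the 19 but add no evidence to that count. Ndn from E14 to E15.5 turned to 0.0291 under median-of-ratios scaling. The number of genes called stayed within 1.5 times its value under each alternative, for all genes in both comparisons and for the 8 lists from E12.5 to P0. From E14 to E15.5 the lists were recounted under the other scalings alone. As deposited, 34.7% of the calls from E12.5 to P0 were higher, against 50.1% under median-of-ratios scaling and 47.8% under quantile normalization; from E14 to E15.5 these shares were 35.6%, 50.3% and 49.0%. These scalings moved the median of all genes from E12.5 to P0 from -0.27 to -0.01 and -0.05. Of the 3 nearest patterns, quantile normalization left 1 for Cdkn1c and 1 for Mest, and a pseudocount of 10 TPM left 1 for Igf2. The deviations of same-numbered libraries had correlations from -0.37 to 0.11 over 10 pairs of stages. With 2 libraries a stage this does not settle whether the replicate numbers stand for a batch, which the labels do not say. With the replicate number as a block, 4676 genes were called from E12.5 to P0 and 3004 from E14 to E15.5, against 4728 and 3128 without it. Where a library is left out, the lone one of its stage is assumed to vary like the other stages. Without read counts, the depth behind low values such as those of Igf2r is unknown.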
